A study of Mus musculus with 141 samples.

Results

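CpG methylation was followed at 8 genes of antigen presentation in single mouse glioma cells. The genes were Psmb8, Psmb9, Tap1, Tap2, Tapbp, B2m, Nlrc5 and Irf1, taken from 21627 protein-coding genes of the RefSeq table. Their members are the positions inside each gene and within 1 kb of either end, 344 of 1416034 cytosine positions. These make 310 CpGs, of which 120 had calls in at least 5 cells of each arm and are called shared CpGs here. Over the genome 396065 of 1322177 CpGs met that rule.

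All cells carried the R132H mutation of isocitrate dehydrogenase (Idh), whose product 2-hydroxyglutarate inhibits the enzymes that take methyl groups off DNA. One arm had been grown in 1 µM AG-881 (vorasidenib, which inhibits mutant IDH1 and IDH2), and the other in the vehicle, DMSO, both for over 2 weeks. Live cells were sorted, 67 from the AG-881 arm and 74 from the DMSO arm, and read by single-cell reduced representation bisulfite sequencing, in which the enzyme MspI selects CpG-dense fragments. How many cultures made up an arm is not stated. Each arm was treated as 1 culture, so no difference here has a replicate check and no test was run. Each arm was prepared as 4 library pools, pools 1 to 4 for AG-881 and pools 5 to 8 for DMSO. Arm and library pool cannot be told apart, since each pool came from a single arm.

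Cells show fragments of their own proteins on MHC class I molecules at the surface, where T cells read them. The immunoproteasome cuts proteins into peptides, the TAP transporter carries the peptides into the endoplasmic reticulum, and tapasin holds the transporter beside class I molecules waiting for a peptide. Interferon raises this machinery through the transcription factor IRF1 and the class I transactivator NLRC5, and tumour cells often keep it low. Methylation of promoter CpGs is one of the marks found with silent genes.

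A level below is the percentage of calls that are methylated, where a call is 1 CpG read in 1 cell. Intervals are exact Clopper-Pearson intervals at the 95% level, and the interval of a difference combines those of both arms. Only counting error is in them. Neighbouring calls of a cell go together, so the true uncertainty is wider. An AG-881 cell had a median of 24 calls over the 8 genes, and a DMSO cell had a median of 19.

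Genome-wide, the median number of CpGs read was 89440 per AG-881 cell and 67749 per DMSO cell. At the shared CpGs of the genome the level was 25.4% in AG-881 cells and 26.8% in DMSO cells. The AG-881 pools ranged from 23.6% to 28.4%, and the DMSO pools from 25.8% to 27.6%, so the ranges overlap.

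Psmb9, Tap1, Psmb8 and Tap2 lie side by side in the MHC region of chromosome 17. Psmb9 (chr17:34182030-34187330, build mm10) is on the minus strand and Tap1 (chr17:34187556-34197225) on the plus strand, with 225 bp between their starts. Psmb8 (chr17:34198195-34201454) starts 969 bp past the end of Tap1, and Tap2 (chr17:34204479-34216321) lies 3024 bp further on. Tapbp (chr17:33919478-33929290) is 252739 bp away on the same chromosome. B2m lies at chr2:122147687-122153082, Nlrc5 at chr8:94434335-94527272 and Irf1 at chr11:53770014-53778374.

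The windows of neighbours share CpGs, so the genes are not independent of each other. All 8 shared CpGs around the start of Psmb9 are the same 8 as around the start of Tap1, and all 8 shared CpGs of the Psmb8 window also lie in the Tap1 window.

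The 250 bases before 4 starts are printed because they show how the promoters differ in CpGs. In Psmb8, Tap1 and B2m few of these CpGs were read, and in Irf1 most were. They are RefSeq sequences of GRCm38.p6, 5′ to 3′ on the strand of the gene, and RefSeq held a promoter for 6 of the 8 genes. Capitals mark every CpG, except in Irf1, where they mark the CpGs that had a call in the table. The Tap1 stretch (chr17:34187306-34187555, plus strand) also holds the start of Psmb9 on the other strand. Psmb8 (chr17:34197945-34198194, plus strand), B2m (chr2:122147437-122147686, plus strand) and Irf1 (chr11:53769764-53770013, plus strand) follow.
Tap1: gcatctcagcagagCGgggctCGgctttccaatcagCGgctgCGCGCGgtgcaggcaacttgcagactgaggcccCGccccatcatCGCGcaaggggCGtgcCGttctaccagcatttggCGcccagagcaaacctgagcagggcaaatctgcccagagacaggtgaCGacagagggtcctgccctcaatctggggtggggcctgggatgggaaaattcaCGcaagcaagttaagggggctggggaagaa
Psmb8: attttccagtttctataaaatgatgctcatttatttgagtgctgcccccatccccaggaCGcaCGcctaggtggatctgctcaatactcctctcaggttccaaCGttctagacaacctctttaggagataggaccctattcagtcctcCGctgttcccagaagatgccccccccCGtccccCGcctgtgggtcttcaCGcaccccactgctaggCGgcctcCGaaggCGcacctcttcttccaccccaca
B2m: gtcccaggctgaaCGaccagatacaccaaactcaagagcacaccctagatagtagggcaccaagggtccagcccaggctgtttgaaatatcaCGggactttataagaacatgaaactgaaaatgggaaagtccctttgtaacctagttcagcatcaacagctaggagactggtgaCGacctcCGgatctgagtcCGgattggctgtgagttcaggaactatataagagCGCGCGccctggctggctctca
Irf1: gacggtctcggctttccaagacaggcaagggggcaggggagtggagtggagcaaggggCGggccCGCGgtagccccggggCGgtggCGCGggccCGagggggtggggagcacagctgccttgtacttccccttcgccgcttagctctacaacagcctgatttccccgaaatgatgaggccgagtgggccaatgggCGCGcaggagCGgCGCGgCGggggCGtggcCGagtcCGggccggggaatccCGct

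Irf1 had by far the most CpGs read in its promoter. Of the 32 CpGs in its 300-base promoter entry (250 bases before and 50 after the start), 22 had a call and 10 were shared. A second entry for Irf1, with a start further on (chr11:53770473), held 43 CpGs, of which 18 had a call and 3 were shared. The Psmb8 entry held 11 CpGs and none of them was read. In Tap1 1 of 15 was read, 2 of 17 in Psmb9, 1 of 11 in Tapbp and 3 of 14 in B2m, and none of these was shared. The cut site of MspI, CCGG, was absent from the Psmb8 and Tap1 entries, occurred once in Psmb9 and in Tapbp, 2 times in B2m and 3 times in Irf1. Over 21044 promoter entries, the median was 13 CpGs, and 62.8% held at least 1 cut site. The levels at shared CpGs reported below for Psmb8, Psmb9, Tap1 and Tapbp therefore come from CpGs beside the promoter, outside these entries. Levels over all CpGs read in Psmb9, Tap1 and Tapbp include the few read in the entries.

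Psmb9 and Psmb8 encode catalytic subunits that replace their constitutive counterparts in the immunoproteasome. Psmb9 had 35.3% of 133 calls methylated in AG-881 cells (interval 27.3 to 44.1, 32 cells) and 43.9% of 98 calls in DMSO cells (interval 33.9 to 54.3, 28 cells). The difference was -8.54 points, with an interval of -21.7 to 4.76. AG-881 pools 1 to 4 gave 18.9%, 50%, 28.6% and 48.3%, and DMSO pools 5 to 8 gave 38.6%, 100%, 35% and 46.4%. The 100% of DMSO pool 6 rests on 6 calls, and the other pools of the arms overlapped. Over all 32 CpGs read in the window, in place of the 11 shared ones, Psmb9 had 37.6% of 170 calls methylated in AG-881 cells and 51.3% of 156 calls in DMSO cells. That difference was -13.6 points (interval -24.5 to -2.41), and 2.70 points with every CpG at the same weight.

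Inside Psmb9, far from the start, methylation was high in both arms. At the CpG 4187 bp into the gene 80.0% of 15 AG-881 cells and 77.8% of 9 DMSO cells were methylated. Near the far end, the 2 shared CpGs differed from each other. At 5205 bp, 8 of 8 AG-881 cells and 8 of 8 DMSO cells were methylated, and at 5222 bp, 1 of 8 AG-881 cells and 2 of 8 DMSO cells.

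The shared CpGs of Psmb8 all lay before its start, from -763 to -434. There 22.5% of 89 calls were methylated in AG-881 cells (interval 14.3 to 32.6, 23 cells) and 27.1% of 59 calls in DMSO cells (interval 16.4 to 40.3, 16 cells). The difference was -4.65 points, with an interval of -20.1 to 10.1. AG-881 pools 1 to 4 gave 18.8%, 31.2%, 32.1% and 10.3%. DMSO pools 5, 7 and 8 gave 22.2%, 24% and 57.1%, the last from 7 calls, and DMSO pool 6 had no call at these CpGs. The 4 AG-881 pools spread on both sides of DMSO pools 5 and 7.

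In the Psmb8 stretch no CpG was fully methylated or, in both arms, fully unmethylated. Single CpGs ranged from 8.33% to 36.4% of AG-881 cells and from 0% to 60% of DMSO cells. The CpG at -434 had the largest fall among those read in at least 10 cells of each arm, with 3 of 12 AG-881 cells methylated and 4 of 11 DMSO cells, a difference of -11.4 points whose interval ran from -49.6 to 29.7.

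Tap1 and Tap2 encode the 2 chains of the peptide transporter, and Tap1 showed a steep methylation gradient in its first 602 bases. Over the whole Tap1 window 35.3% of 224 calls were methylated in AG-881 cells (interval 29 to 41.9, 41 cells) and 43.9% of 164 calls in DMSO cells (interval 36.2 to 51.9, 35 cells), a difference of -8.63 points (interval -18.7 to 1.56). In AG-881 pools 1 to 4 the levels were 18.4%, 46.9%, 39.1% and 35.1%, and in DMSO pools 5 to 8 they were 35.8%, 100%, 31.9% and 56.4%. Pool 1 was the lowest of the AG-881 pools, and pool 6, with 11 calls, the highest of the DMSO pools. The remaining pools of the arms overlapped. Over all 47 CpGs read in the window 37.7% of 284 calls were methylated in AG-881 cells and 42.5% of 214 calls in DMSO cells. That difference was -4.85 points (interval -13.8 to 4.10), and 2.65 points with every CpG at the same weight. Pool 6 then had 54.5% of 22 calls.

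At the 4 CpGs from 217 to 235 bp into Tap1, 3.64% of 55 calls were methylated in AG-881 cells (interval 0.443 to 12.5) and 4.55% of 22 calls in DMSO cells (interval 0.115 to 22.8). At the 4 CpGs from 384 to 602 bp, 51.1% of 47 calls were methylated in AG-881 cells (interval 36.1 to 65.9) and 49% of 51 calls in DMSO cells (interval 34.8 to 63.4). Both arms had a step over the same bases. This split was chosen after the values were seen. Of 20 cells of either arm read on both sides of it, 10 were higher beyond the step, 9 were equal and 1 was lower. In most of these cells the CpG at 384 bp alone was read beyond the step. It was methylated in 4 of 14 AG-881 cells and 2 of 6 DMSO cells. The CpGs from 462 to 602 bp were read in 11 AG-881 cells and 15 DMSO cells, mostly other cells. The step is therefore mainly a comparison between cells.

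At the joint start of Tap1 and Psmb9 the arms differed more over all CpGs than on either side of the step. Over the 8 CpGs together the level was 25.5% in AG-881 cells (interval 17.4 to 35.1) and 35.6% in DMSO cells (interval 24.7 to 47.7), a difference of -10.1 points (interval -24.7 to 4.37). The side near the start differed by -0.909 points (interval -19.5 to 9.02), and the far side by 2.04 points (interval -18.7 to 22.6). The unmethylated side gave 55 of the 102 AG-881 calls and 22 of the 73 DMSO calls. With every CpG given the same weight, the joint start had 28.2% in AG-881 cells and 25.8% in DMSO cells, a difference of 2.39 points. The whole window of Psmb9 then differed by 0.803 points and that of Tap1 by -1.34 points. With that weight neither gene was lower by 5 points.

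At 602 bp into Tap1, 9 of 11 AG-881 cells and 9 of 15 DMSO cells were methylated. Among CpGs of Tap1 and Psmb9 read in at least 10 cells of each arm this was the largest rise, 21.8 points, and its interval ran from -19.3 to 53.8. Of 8 CpGs of the Tap1 window read in at least 10 cells of each arm, 4 differed by 10 points or more. They went both ways, from -11.4 to 21.8 points, and each of their intervals spanned both signs. The same share over all CpGs of the genome was not counted. Near the far end of Tap1, from 9386 to 9405 bp, 33 of 33 AG-881 calls and 30 of 32 DMSO calls were methylated.

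**Figure D1:**
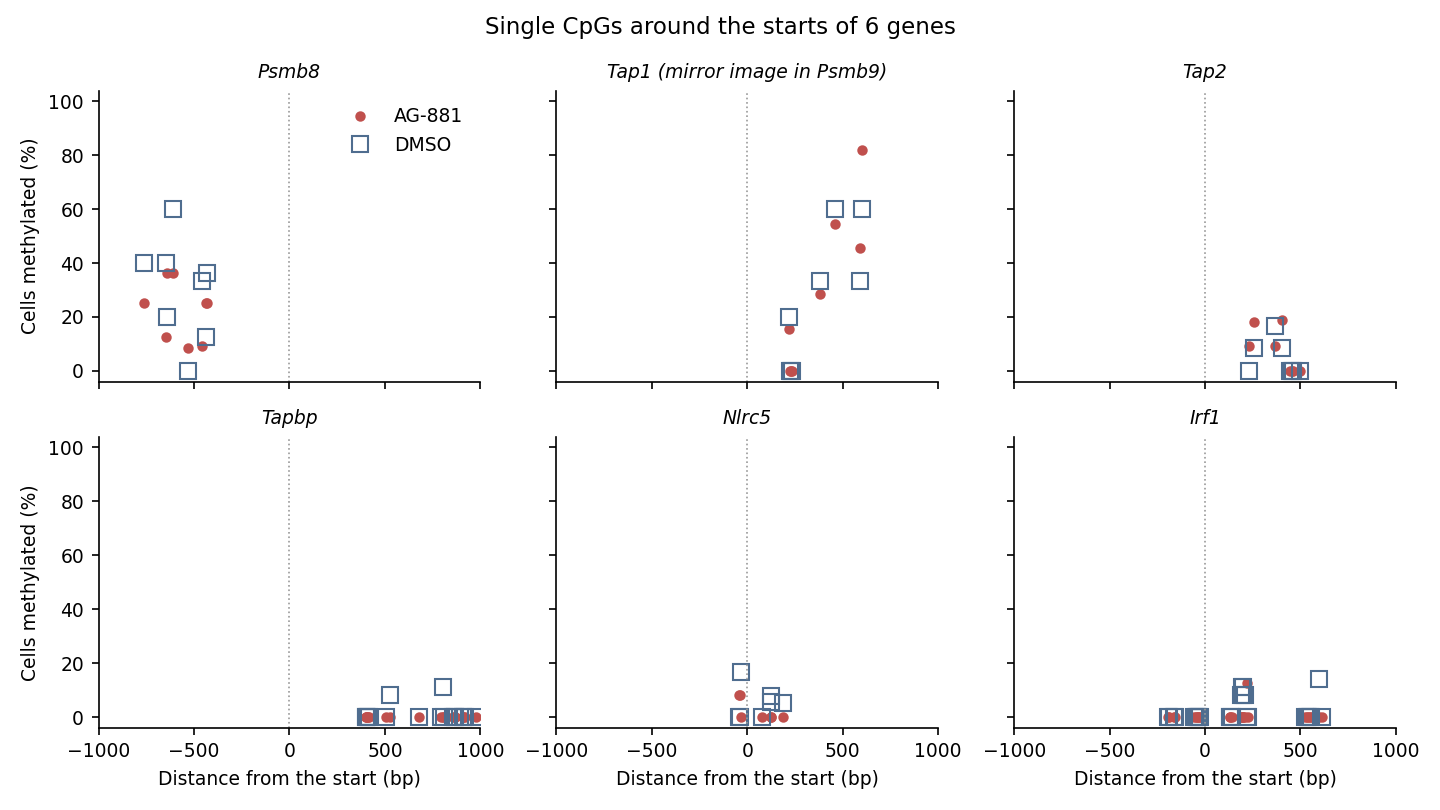
Share of cells methylated at each shared CpG (y axis, %) by its distance from the start (x axis, bp) in 6 genes, in AG-881 cells as filled circles and DMSO as open squares. Tap1 rises in both arms between 235 and 462 bp, Psmb8 is intermediate before its start, and Tapbp, Nlrc5 and Irf1 lie near 0.

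Tap2, the partner chain, was nearly unmethylated past its start and the interval of its difference included 0. From 232 to 498 bp, 6.67% of 105 calls were methylated in AG-881 cells (interval 2.72 to 13.3, 27 cells) and 4.49% of 89 calls in DMSO cells (interval 1.24 to 11.1, 25 cells), a difference of 2.17 points (interval -5.53 to 9.52). AG-881 pools 1 to 4 gave 3.85%, 4.35%, 5.26% and 10.8%, and DMSO pools 5 to 8 gave 3.85%, 0%, 6.25% and 6.06%. Pool 4 of AG-881 was the highest, and the other AG-881 pools lay within the range of the DMSO pools.

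At the last 4 of the 8 CpGs of this stretch no cell of either arm was methylated. The methylated calls all came from the first 4 CpGs. The largest rise was at 403 bp, where 3 of 16 AG-881 cells and 1 of 12 DMSO cells were methylated. Further into Tap2 the level was higher. At 1230 bp, 4 of 7 AG-881 cells and 4 of 9 DMSO cells were methylated, and the 2 CpGs near the far end had 68.8% of 16 calls in AG-881 cells and 68.4% of 19 calls in DMSO cells. Over the whole Tap2 window the level was 17.2% in AG-881 cells and 17.9% in DMSO cells (difference -0.761 points, interval -11 to 9.28).

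Tapbp, which encodes tapasin, was unmethylated in nearly every cell at the shared CpGs near both ends. From 399 to 980 bp past its start, 0 of 163 AG-881 calls were methylated, which allows a level of up to 2.24%, and 2 of 184 DMSO calls, 1.09% (interval 0.132 to 3.87). Around its far end, which overlaps the start of the next gene Rgl2, 0 of 298 AG-881 calls were methylated, which allows up to 1.23%, and 1 of 371 DMSO calls. Before the start, CpGs read in fewer cells were methylated, as at -948 and -933, each in 4 of 4 AG-881 cells and 3 of 3 DMSO cells. Over all 31 CpGs read around the start, 7.94% of 189 calls were methylated in AG-881 cells and 5.16% of 213 calls in DMSO cells, a difference of 2.77 points (interval -2.41 to 8.23). The 1 shared CpG between the ends, 8511 bp into the gene, was methylated in 7 of 7 AG-881 cells and 5 of 5 DMSO cells. Over the whole window AG-881 pools ranged from 0.746% to 2.38% and DMSO pools from 0.562% to 3.03%. The Tapbp window also overlaps Zbtb22 and the long noncoding RNA Gm19412.

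B2m encodes the invariant light chain of class I molecules, and too few cells read it for a comparison. It had no shared CpG. At its 5 CpGs, all near the start, 0 of 18 calls from 4 AG-881 cells were methylated, which allows up to 18.5%, and 0 of 24 calls from 5 DMSO cells, which allows up to 14.2%. A difference smaller than these limits was not detectable at this depth. The gene lies inside the larger gene Patl2.

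Nlrc5 encodes the transactivator that switches on the class I genes, and its start was nearly unmethylated while its body was methylated. From -44 to 185 bp around the start, 2.25% of 89 calls were methylated in AG-881 cells (interval 0.273 to 7.88, 26 cells) and 5.41% of 74 calls in DMSO cells (interval 1.49 to 13.3, 23 cells), a difference of -3.16 points (interval -11.3 to 3.70). In AG-881 pools 1 to 4 the levels were 4.55%, 0%, 2.86% and 0%, and in DMSO pools 5 to 8 they were 0%, 0%, 10.7% and 5.88%, so the arms overlapped. These 7 CpGs also lie in the long noncoding RNA 9330175E14Rik.

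More than 1 kb from both ends, Nlrc5 had 6 shared CpGs, with 72.2% of 54 calls methylated in AG-881 cells (interval 58.4 to 83.5, 33 cells) and 56.7% of 67 calls in DMSO cells (interval 44 to 68.8, 37 cells). The difference was 15.5 points (interval -2.87 to 32.5). AG-881 pools 1 to 4 gave 76.9%, 80.0%, 64.7% and 71.4%, and DMSO pools 5 to 8 gave 56.2%, 54.5%, 57.1% and 57.7%. Every AG-881 pool was above every DMSO pool. Among 3232 gene bodies with at least 10 calls in every pool, 0.619% had that order, and among 4230 measured gene bodies 11% were higher in AG-881 cells by 5 points or more. Over all 34 CpGs read in the Nlrc5 body, 65.7% of 99 calls were methylated in AG-881 cells and 61.3% of 111 calls in DMSO cells. That difference was 4.40 points (interval -9.29 to 17.8), and -5.96 points with every CpG at the same weight. The pools of the arms then overlapped.

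The 6 CpGs of the Nlrc5 body were read unequally in the arms, as at Tap1. The CpG at 13108 bp was methylated in 0 of 9 AG-881 cells and 1 of 21 DMSO cells. At the other 5 CpGs 86.7% of 45 calls were methylated in AG-881 cells (interval 73.2 to 94.9) and 80.4% of 46 calls in DMSO cells (interval 66.1 to 90.6), a difference of 6.23 points (interval -10.7 to 22.8), and the pools of the arms overlapped. With every CpG at the same weight the body differed by 2.06 points. At 39289 to 39307 bp the level was 68.4% of 19 calls in AG-881 cells and 66.7% of 24 calls in DMSO cells. At 85886 bp, 13 of 13 AG-881 cells and 9 of 10 DMSO cells were methylated, and at 86029 bp, all 13 AG-881 cells and all 12 DMSO cells. Over the whole Nlrc5 window the level was 28.7% in AG-881 cells and 29.8% in DMSO cells (difference -1.12 points, interval -12.1 to 9.90).

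Irf1 encodes a transcription factor induced by interferon gamma that acts on promoters of this pathway, and its CpG-rich start was almost free of methylation. Over its 27 shared CpGs, 1 of 236 calls was methylated in AG-881 cells, 0.424% (interval 0.0107 to 2.34, 28 cells), and 6 of 221 calls in DMSO cells, 2.71% (interval 1.00 to 5.82, 21 cells). The difference was -2.29 points (interval -5.42 to 0.277). In AG-881 pools 1 to 4 the levels were 0%, 0%, 0% and 1.10%, and in DMSO pools 5 to 8 they were 2.25%, 10.0%, 0% and 1.67%. DMSO pool 6 was the highest, with 30 calls. Over all 70 CpGs read in the window 2.04% of 393 calls were methylated in AG-881 cells and 2.70% of 333 calls in DMSO cells. That difference was -0.667 points (interval -3.30 to 1.76), and 1.54 points with every CpG at the same weight. The 10 shared CpGs before the start, among the 17 in capitals in the printed sequence, had 0 methylated calls of 92 in AG-881 cells and 0 of 58 in DMSO cells.

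**Figure D2:**
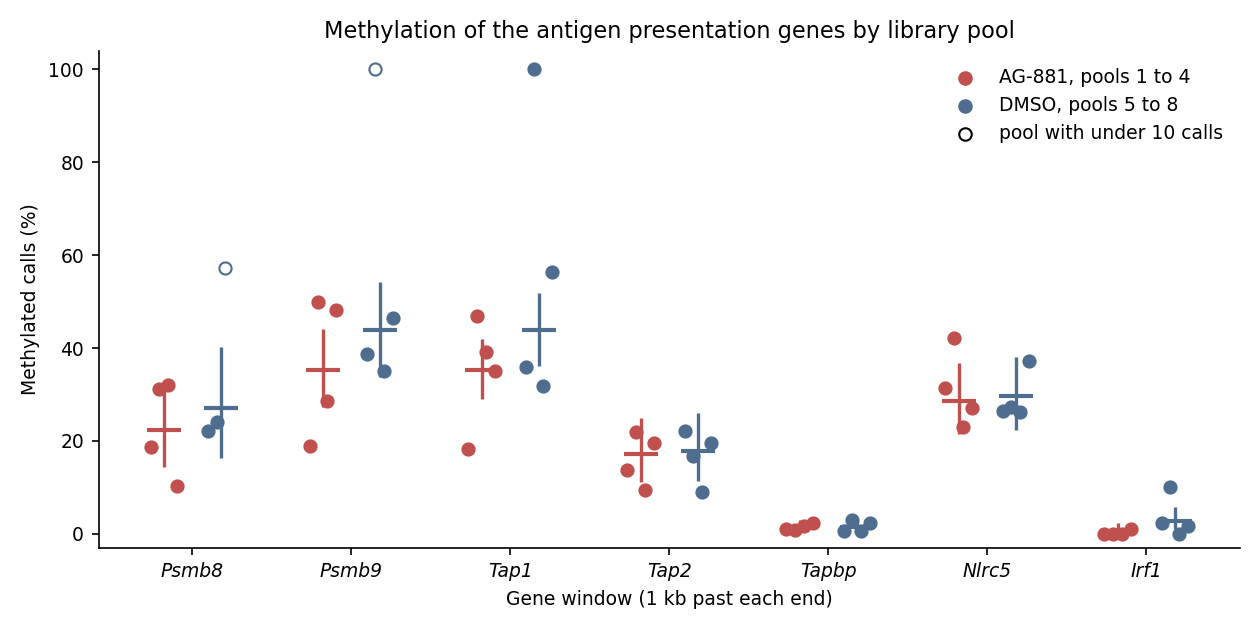
Methylated calls (y axis, %) over the whole window of 7 genes (x axis), AG-881 left of DMSO, at shared CpGs. Points are library pools, open where a pool had under 10 calls, and crosses are the arm with its exact 95% interval. Tapbp and Irf1 lie near 0, Tap1 and Psmb9 are the highest, and the pools of the arms overlap at each gene.

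Both uniform and mixed cells were found at the intermediate starts. At the joint start of Tap1 and Psmb9, of 22 AG-881 cells with at least 3 calls, 8 had no methylated call, 11 were mixed and 3 had every call methylated. Of 18 DMSO cells, 3 had none, 13 were mixed and 2 had all. Cells were not all read at the same CpGs, so a cell read on only 1 side of the step counts by that side. In the Psmb8 stretch 9 of 21 AG-881 cells had no methylated call and 12 were mixed, whereas 5 of 15 DMSO cells had none and 10 were mixed. No cell of either arm was methylated at every call there.

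At the low starts most cells had no methylated call. This held for 18 of 24 AG-881 cells and 17 of 21 DMSO cells at Tap2, for 22 of 22 AG-881 cells and 23 of 25 DMSO cells at Tapbp, and for 16 of 18 AG-881 cells and 14 of 17 DMSO cells at Nlrc5. At Irf1, from -192 to 225 bp, it held for 14 of 15 AG-881 cells and 12 of 16 DMSO cells. No start of these 4 genes had a cell with every call methylated.

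**Figure D3:**
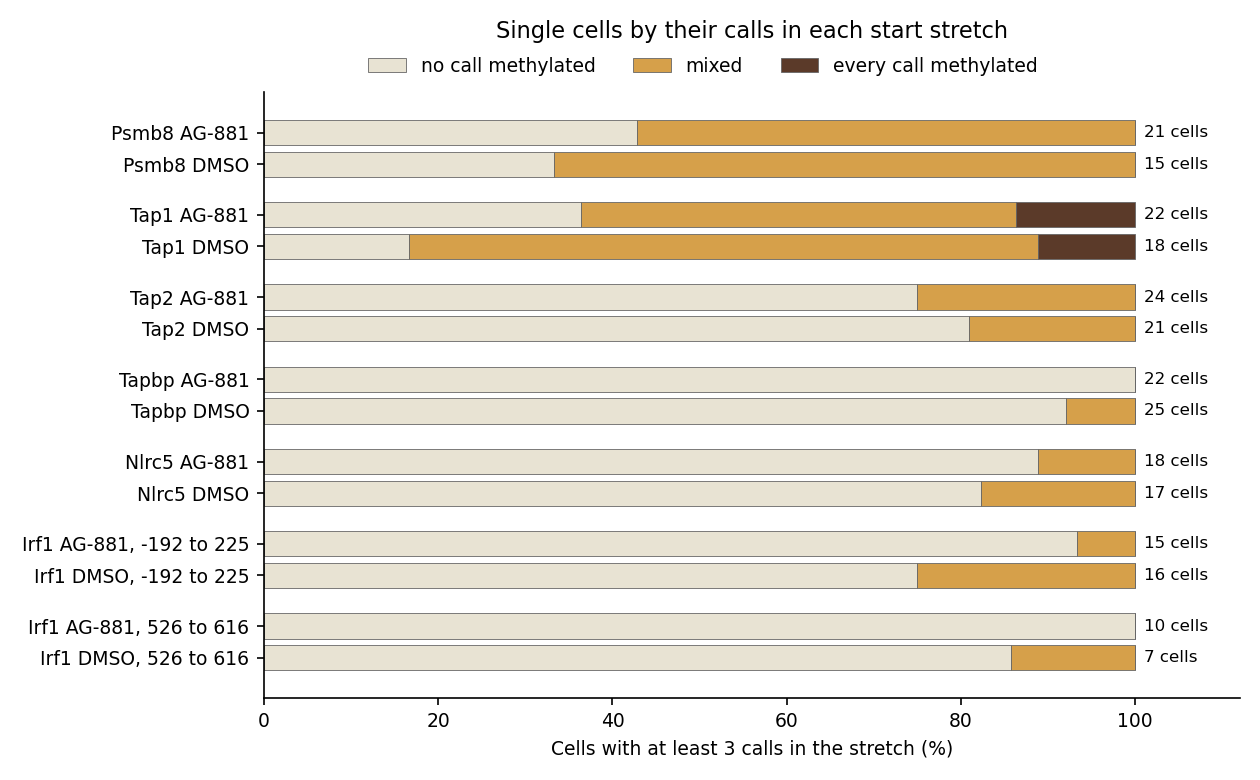
Cells with at least 3 calls in a start stretch (x axis, %), split into cells with no methylated call, mixed cells and cells with every call methylated, in AG-881 cells above DMSO for each gene. Fully methylated cells occur only at Tap1, 3 of 22 in AG-881 cells and 2 of 18 in DMSO cells.

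By shared CpGs within 1 kb of the start, Tap1, Psmb9 and Psmb8 ranked high among protein-coding genes. None of their shared CpGs lay in a promoter entry, so the ranks describe CpGs beside the promoter. The 2 CpGs read in the Psmb9 entry were each methylated in 0 of 1 AG-881 cells and 0 of 3 DMSO cells. Of 7621 genes with a measured start, 92.9% had a lower DMSO level than Tap1 and Psmb9, and 90.4% had a lower one than Psmb8. The shares were 77.3% for Nlrc5, 75.7% for Tap2, 70.1% for Irf1 and 56.1% for Tapbp. Among genes with 6 to 19 CpGs in the promoter entry, as in Tap1 and Psmb8, 10.5% of calls at 500 to 1000 bp past the start were methylated in AG-881 cells and 11.9% in DMSO cells. Tap1 had 63.6% of 22 calls in AG-881 cells and 46.7% of 30 calls in DMSO cells at that distance. At 0 to 250 bp these genes had 7.27% in AG-881 cells and 7.97% in DMSO cells, and Tap1 had 3.64% in AG-881 cells and 4.55% in DMSO cells.

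Few of the listed genes differed by 5 points or more, the size used as a call, in windows where each arm had 50 or more calls from 10 or more cells. Of 7 genes measured over the whole window, 2 were lower in AG-881 cells by that much, Psmb9 and Tap1, against 13.8% of 11650 protein-coding genes, and 0 were higher, against 6.34%. Around the start the same 2 were lower, through the same 8 CpGs, against 8.38% of 7621 genes, and 0 were higher, against 2.61%. With at least 10 calls in every pool, 0 of 5 genes had all AG-881 pools below all DMSO pools, against 1.34% of 9987 genes, and 0 had all above, against 0.421%. Counted as separate stretches of DNA, the 2 genes are 1 locus. Over all CpGs read, in place of the shared ones, Tap1 fell short of the size at -4.85 points and Psmb9 passed it at -13.6 points. The count of 2 lower genes fell to 0 when AG-881 pool 1 or any 1 DMSO pool was left out. Tap1 then differed by -3.90 points without AG-881 pool 1, and by -3.76, -4.60, -2.82 and -1.63 points without DMSO pools 5, 6, 7 and 8. Without DMSO pool 5, Psmb9 had too few calls or cells to be measured. Psmb9 differed by -2.21 points without AG-881 pool 1, by -4.88 points without DMSO pool 6 and by -4.32 points without DMSO pool 8, and was higher by 6.92 points without DMSO pool 7. Psmb8, just short of the size at -4.65 points, was lower by more than 5 points without AG-881 pool 2 or 3, at -6.57 and -9.09 points. It differed by -3.83 points without AG-881 pool 1 and was higher by 1.21 points without AG-881 pool 4. Without DMSO pool 5, 7 or 8 Psmb8 had too few calls or cells to be measured.

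The median whole-window difference was -2.29 points over the 7 genes and -0.247 points over all genes. Of the 7 genes 6 were lower in AG-881 cells, and of all genes 55.1% were lower. Pooled over all shared CpGs of the 8 windows, each counted once, 13.9% of 1230 calls were methylated in AG-881 cells (interval 12 to 16) and 13.5% of 1228 calls in DMSO cells (interval 11.7 to 15.6). That difference, 0.385 points (interval -2.39 to 3.16), has the opposite sign to the mean of the 7 gene differences, -3.70 points. AG-881 pools 1 to 4 gave 12.3%, 16.1%, 13.8% and 13.4%, and DMSO pools 5 to 8 gave 13.2%, 15.8%, 9.04% and 17.2%.

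The difference at Tap1 lay within the spread of genes at a like level. Among 236 genes whose start had a mean level within 5 points of that of Tap1, the median difference was -5.01 points and the 10th to 90th percentiles ran from -14.2 to 4.61 points. Psmb8 too lay within that range of its like genes, at -4.65 points against a range of -14.2 to 6.10. Irf1 lay below its range at the start, at -2.29 points against -1.45 to 0.763, and Nlrc5 at -3.16 points against -1.61 to 0.786. Tap2 lay above its range, at 2.17 points against -3.22 to 1.53. These 3 starts had between 74 and 236 calls per arm, and the median start had 210 calls in AG-881 cells and 191 in DMSO cells. Their ranges came from 6069 genes for Irf1, 6267 for Nlrc5 and 2821 for Tap2, of 7621 measured starts. The median DMSO level of the 7621 starts was 0.8%, so the like genes of Irf1 and Nlrc5 are mostly starts near 0. The intervals, -5.42 to 0.277 for Irf1, -11.3 to 3.70 for Nlrc5 and -5.53 to 9.52 for Tap2, each overlapped the range. The ranges were taken at shared CpGs. Over all CpGs read around the start Irf1 differed by -1.09 points (interval -3.41 to 0.945), a size inside its range. Nlrc5 then differed by -3.29 points and Tap2 by 4.49 points, outside theirs.

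**Figure D4:**
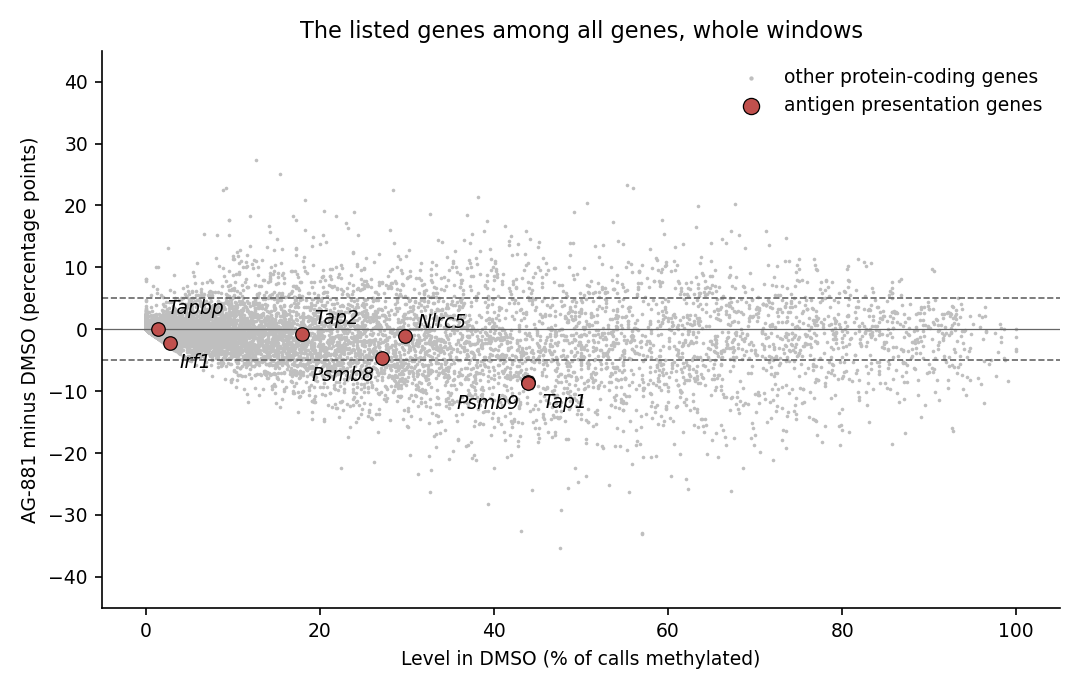
Difference between arms (y axis, AG-881 minus DMSO, percentage points) against the DMSO level (x axis, %) over whole windows, with 7 listed genes among 11650 protein-coding genes and dashed lines at the size used as a call, 5 points. Psmb9 and Tap1 lie below the lower line on top of each other, and the other 5 lie between the lines.

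**Figure D5:**
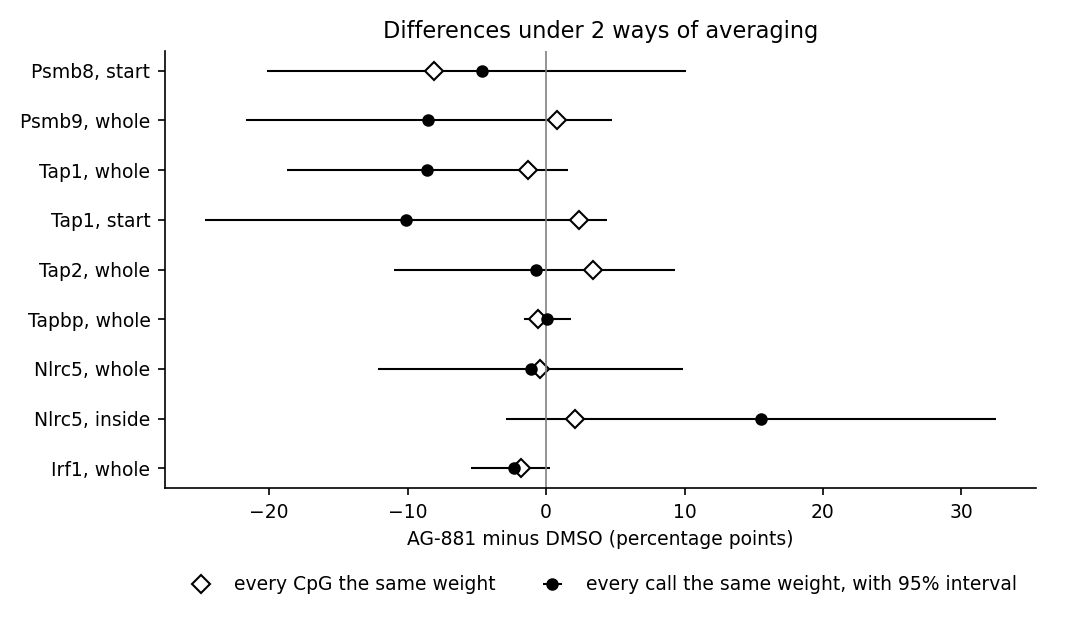
Difference between arms (x axis, AG-881 minus DMSO, percentage points) in windows of the listed genes, with every call at the same weight (filled, with 95% interval) and every CpG at the same weight (open). At Psmb9, at the start of Tap1 and in the body of Nlrc5 the open symbols lie near 0, and at Psmb8 the open symbol lies further below 0.

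The wider pathway was taken from 5 lists of other genes, 74 in all, of which 45 were measured. Of these, 24 were lower in AG-881 cells, 15 higher and 6 equal, with a median of -0.177 points. By 5 points or more 3 were lower and 1 was higher, which is 6.67% and 2.22% of them, below the shares over all genes.

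MHC class I chains, which hold the peptide, had high levels. Of 9 measured, 8 were lower in AG-881 cells and 1 was higher, and of all genes 55.1% were lower. The median level was 42.9% in AG-881 cells and 50.9% in DMSO cells, and the median difference was -1.70 points. H2-Q10, a class I gene known in mouse for a secreted product of the liver, had the largest decrease of the pathway, with 42.9% of 301 calls in AG-881 cells and 56.8% of 183 calls in DMSO cells. Its difference was -14.0 points (interval -23.2 to -4.48), and -13.1 points with every CpG at the same weight. In AG-881 pools 1 to 4 the levels were 32.2%, 41.1%, 61.1% and 43.6%, and in DMSO pools 5 to 8 they were 55.7%, 59.3%, 72.1% and 44.2%, so pool 3 of AG-881 and pool 8 of DMSO made the arms overlap. H2-Q1 differed by -3.57 points and H2-Q4 by -3.49 points. Class I genes of the Q cluster are near-copies of each other, so reads may have been placed on the wrong copy.

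Genes for peptide loading and trimming were nearly free of methylation, with a median level of 0.393% in AG-881 cells and 0.742% in DMSO cells over 12 genes. Of these 4 were lower, 3 higher and 5 equal, and 0 differed by 5 points. Their levels ran up to 15.7% in AG-881 cells and 18% in DMSO cells. Transactivators of MHC genes were as low, with medians of 0.239% in AG-881 cells and 0.862% in DMSO cells over 7 genes, of which 2 were lower and 4 higher. Rfxank, a subunit of the RFX complex that binds MHC promoters, had 7.43% in AG-881 cells and 5.02% in DMSO cells, a difference of 2.41 points (interval -1.51 to 6.31), and 0.210 points with every CpG at the same weight.

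Of MHC class II genes 2 of 11 were measured, and both were higher in AG-881 cells, as were 4260 of 11650 protein-coding genes. H2-DMa had 8.09% in AG-881 cells and 6.93% in DMSO cells. Its difference was 1.16 points (interval -1.35 to 3.68), and -0.0339 points with every CpG at the same weight. H2-Ab1, a class II beta chain, had 68.4% of 152 calls in AG-881 cells and 58.9% of 124 calls in DMSO cells, a difference of 9.55 points (interval -2.33 to 21.3), and 4.98 points with every CpG at the same weight. Interferon signalling genes numbered 15 measured, 10 lower and 5 higher, with a median difference of -0.904 points. By 5 points or more 2 of the 15 were lower and 0 higher, against 13.8% and 6.34% of all genes. Both lower genes are named here after their values were seen. Mavs, an adaptor of RNA sensors, had 16.1% of 56 calls in AG-881 cells and 24.1% of 54 calls in DMSO cells, a difference of -8.00 points (interval -24 to 8.19), and -2.82 points with every CpG at the same weight. Tyk2, a kinase of interferon receptors, had 87.7% of 73 calls in AG-881 cells and 95.6% of 68 calls in DMSO cells, a difference of -7.92 points (interval -18.3 to 2.37), and -5 points with every CpG at the same weight. Tbk1, a kinase that signals from DNA and RNA sensors, had 14.1% in AG-881 cells and 11% in DMSO cells, a difference of 3.11 points (interval -1.59 to 7.78), and -0.969 points with every CpG at the same weight.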

How the data were processed

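Single cells were sorted and read by joint scRRBS and Smart-seq2, per the labels' protocols; transcripts were not analysed here. The deposited table gives, per cytosine and cell, a methylated fraction of 0, 0.5 or 1, with no read counts, so read depth is unknown. Positions follow mm10, per the submitters' processing notes. Aligner and caller were not given in the sources used here. Incomplete bisulfite conversion would raise every level. Column names give arm, pool and barcode, so all 141 columns were assigned to arms, not wells.

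Adjacent positions on chromosomes 1 to 19 and X were merged as the 2 strands of 1 CpG. Ties, 0.649% of calls, were left out. Of table positions inside RefSeq promoter entries 98.4% fell on a CpG of the reference. Windows ran 1 kb past the gene ends of the RefSeq table (GRCm38.p6, the same sequence as mm10). Starts came from the promoter entries, and for Tap2 and Nlrc5 from the end with more CpGs in the table. Measured windows had 50 or more calls from 10 or more cells in each arm. Levels, intervals and counts were computed with Python 3.11.15, numpy 2.4.6, pandas 2.3.3 and scipy 1.17.1, and drawn with matplotlib 3.10.9. The code was tested on simulated data, where each call was drawn independently and base levels were kept away from the extremes. The simulation therefore does not cover calls of a cell that go together, or the lowest levels.

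No test was run, because each arm was treated as 1 culture, as the labels give no number. Replicate numbers do not exist for pools, and pools served as technical batches only. The genes, lists and rules were chosen with earlier results of these data known. All 8 genes were described. Single CpGs with the largest fall or rise of a gene were named at 10 or more cells per arm and a change of 10 points or more. Further single CpGs were given to describe levels along the genes, without that rule. Other pathway genes named were the 3 largest decreases and 3 largest increases at 100 or more calls and 20 or more cells per arm. Genes of most similar pattern required 20 calls in every pool at a mean level of 10 to 90%, which 0 of the 8 genes met. Alternatives changed the cells required per CpG, the window, the weights, ties, strands, the cells used, the size of a call and the pools. Stretches were shared CpGs at most 200 bp apart, 3 or more together; this rule, the split of Tap1 and that of the Nlrc5 body were chosen after seeing the data.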

Additional observations from a re-analysis of the deposited data

How the results depend on the processing

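Of 7 measured genes 2 were lower in AG-881 cells by 5 points. That count was 1 with CpGs read in 1 or more cells per arm, with windows of 500 bp, with every CpG at the same weight (Psmb8) and with cells of at least 50000 CpGs, and 0 with CpGs read in 10 or more cells per arm (4 genes measured) and with a size of 10 points. It was 3 with 2 kb windows, with ties as part calls and with strands not merged, and ran from 0 to 3 with 1 pool left out, where the shared CpGs were chosen again. The count of higher genes, 0, was 1 with CpGs read in 10 or more cells (Tap1), 1 with every cell at the same weight (Tap2), and ran from 0 to 1 with 1 pool left out. The pooled difference, 0.385 points, was -3.70 points as the mean of the gene differences and stayed within its own interval under every other setting, from -0.535 to 1.73 points with 1 pool left out. The number of genes with separated pools was 0 under each of 7 other settings.

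The difference at Psmb9 turned to 0.803 points over the whole window and 2.39 points at the start with every CpG at the same weight, and ran from -13.2 to 6.92 points over the whole window with 1 pool left out and was -15.2 points with CpGs read in 1 or more cells. Psmb8 was higher by 1.21 points without AG-881 pool 4. That at Tap1 turned to 2.39 points at the start with every CpG at the same weight, and to 5.76 points over the whole window with CpGs read in 10 or more cells. With every cell at the same weight Tap2 reached 11.9 points at the start and Nlrc5 -12.6 points over the whole window. Irf1 was lower in AG-881 cells under all 15 other settings. Outside these settings, over all 70 CpGs read in its window and with every CpG at the same weight, Irf1 was higher by 1.54 points. The causes were not tested.

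No paired analysis was possible because no test was run and the columns carry no replicate numbers. Depth limits every value: the file gives no read depth, a median of 24 calls per AG-881 cell and 19 per DMSO cell covers the 8 genes, and most promoter CpGs were not read.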

Other observations

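Of 9 immune cell markers 0 had a measured window, so methylation gives no reading of immune cells here. Of 7 measured markers of glial tumour cells, 5 were lower in AG-881 cells and 2 higher, with a median of 40.3% in AG-881 cells and 49.3% in DMSO cells. By 5 points or more 4 were lower and 1 higher, against 13.8% and 6.34% of all genes. Besides Olig2, given below, Sox10 differed by -8.99 points (interval -20.7 to 2.99) and Pdgfra by -7.49 points (interval -18.7 to 2.85). Gfap differed by -8.18 points (interval -25.0 to 8.60) and Nes by 8.03 points (interval -7.28 to 23.3), each from 6 CpGs. With every CpG at the same weight Sox10, Pdgfra, Gfap and Nes differed by -12.3, -2.24, -9.38 and 5.54 points. Sox2 differed by -0.101 points and Cspg4 by 0.727 points. Olig2, a transcription factor of the oligodendrocyte lineage picked after its values were seen, had 0% of 138 calls methylated in AG-881 cells, which allows up to 2.64%, and 11.7% of 154 calls in DMSO cells. All 4 AG-881 pools were at 0%, and DMSO pools 5 to 8 had 18.8%, 22.5%, 0% and 0%, so the pools of the arms overlapped.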
